A study of Mus musculus with 9 samples.

Results

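The resting expression profile of mouse peritoneal macrophages was read from the 3 arrays labelled as untreated, out of 9 arrays in the series. The profile was the rank order of 19752 genes by mean log2 intensity over those 3 arrays, each gene being represented by a probe set that carried exactly 1 gene symbol. All 9 samples came from male C57BL/6 mice of 6 weeks, whose macrophages were collected by peritoneal lavage, sorted by flow cytometry on a FACSAria and lysed in TriZol. The other 6 arrays were from mice given a subcutaneous injection of recombinant interferon 2 h before killing, with 10000 U of interferon alpha (IFNa, n = 4) or 8000 U of interferon gamma (IFNg, n = 2). The untreated mice (n = 3) received no injection, and no mouse received vehicle alone, so any difference between rest and treatment also contains that of injection and handling. The sample labels gave F4/80 alone as the sorting marker of untreated cells and F4/80 with ICAM2 for treated cells, whereas the description of the series gave F4/80 and ICAM for all of them. The labels did not say whether arrays came from separate mice, so errors and p-values measure the spread between these samples, which may be technical.

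Large peritoneal macrophages are the long-lived resident phagocytes of the abdominal cavity. They depend on the transcription factor Gata6, which is maintained by retinoic acid from the surrounding tissue. They take up microbes, and they clear dying cells without recruiting other leukocytes. Type I interferons such as IFNa signal through Ifnar1 and Ifnar2, and the type II interferon IFNg through Ifngr1 and Ifngr2, to JAK kinases and STAT factors that switch on antiviral genes. Many antiviral genes are also kept at a low tonic level in cells that have met no virus.

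Levels are deposited RMA intensities on a linear scale, and 3 values given together are those of untreated replicates 1, 2 and 3 in that order. A percentile is the share of the 19752 genes with a lower mean log2 level at rest. Probe sets differ in how strongly they bind, so a rank describes array signal and not molecules per cell, and no fold is given between genes. Near-identical genes such as Lyz1 and Lyz2 or Ifit3 and Ifit3b can share signal. As a yardstick for probe sets with little target, the 95th percentile of 1231 smell and taste receptor genes was taken in each array, which lay at an intensity of 148.3, 117.5 and 105.1. A gene was called above this background band where all 3 arrays exceeded it, near the floor where none did, and mixed otherwise. By this rule 11031 genes (55.8%) lay above the band, 6995 (35.4%) near the floor and 1726 (8.74%) were mixed, and these shares are the background for the counts of each list below. With the edge at the 99th percentile of the same receptors 6976 genes lay above, and with keratin and defensin genes as the reference 4726 did, so membership close to the edge depends on the yardstick. The top 10% held 1975 genes and ended at Cdv3 with a mean of 1062.0, just above Nop16 at 1061.3.

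Untreated replicate 1 stood apart from the others. Its interquartile range was 2.27 on the log2 scale against 2.68 and 3.03 in replicates 2 and 3, and IFNa replicate 4 was the narrowest of all at 2.16, the other arrays lying between 2.68 and 3.03. Genes above the band were lower in replicate 1 than in the mean of replicates 2 and 3, by a median log2 of -0.25. Each gene is therefore described by its 3 values. Without replicate 1, 11983 genes lay above the band and 7047 near the floor. The rank order was shared all the same, since the 3 arrays had 163 of their 200 highest genes in common (81.5%), and Pearson's r across genes, which are not independent, was 0.982, 0.969 and 0.990 between replicates 1 and 2, 1 and 3, and 2 and 3.

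The 4 markers of large peritoneal macrophages were among the brightest genes. Adgre1, which encodes F4/80, gave 8361, 7966 and 8498 (SD 0.048 on the log2 scale, n = 3) and lay at percentile 99.7. Icam2, an adhesion molecule, gave 3873, 3116 and 3524 (SD 0.16, percentile 98.2). Timd4, a receptor for phosphatidylserine on dying cells, gave 5406, 5661 and 5354 (SD 0.043, percentile 99.2). Replicate 1 was not the lowest array for any of these 3 genes. Gata6 gave 3293, 3778 and 3967 (SD 0.14, percentile 98.4) and was lowest in replicate 1. Of the wider list of surface and secreted genes of these cells, 28 of 28 lay above the band and 27 in the top 10%, against 55.8% and 10% of all genes. The list was chosen with earlier results of these data known, and the cells were sorted on F4/80, so these counts are a description. All 4 markers, Icam2 included, gave bright signal in the samples whose label gives F4/80 alone.

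Markers of other cells that a lavage can hold were mostly low. Of the T and NK cell list 5 of 20 lay above the band, of mast cells 3 of 14, of neutrophils and eosinophils 3 of 20 and of mesothelial and stromal cells 5 of 18. The T cell receptor chains Cd3d and Cd3g, the mast cell protease Mcpt4 and the neutrophil gene S100a8 were near the floor, S100a8 at 59.2, 65.4 and 68.3. B cell genes were above in 9 of 18, led by the signalling scaffold Bank1 at 1322, 2034 and 1671. The B cell markers Cd79b, at 339, 259 and 374, and Ms4a1 (CD20), at 110.3, 67.4 and 200.4, were both highest in replicate 3. The summed intensity of the B cell list was 4135 in replicate 1, 4674 in replicate 2 and 4344 in replicate 3, and it reached 6399 in IFNa replicate 2. Among genes of small macrophages, monocytes and dendritic cells 11 of 18 lay above the band, with Retnla at 4416, 5210.3 and 5204 and the chemokine receptor Ccr2 at 185, 264 and 433. Flt3 and Itgax, which mark dendritic cells, were near the floor. Pf4, a platelet chemokine, was at 7411, 7733 and 7505, while the platelet genes Ppbp, at 64.6, 49.8 and 53.9, and Gp9, at 132, 111 and 80.9, were near the floor. In a sorted bulk sample, fewer cells of a type and less RNA per cell cannot be told apart. The part of such cells in any level was not tested.

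**Figure D1:**
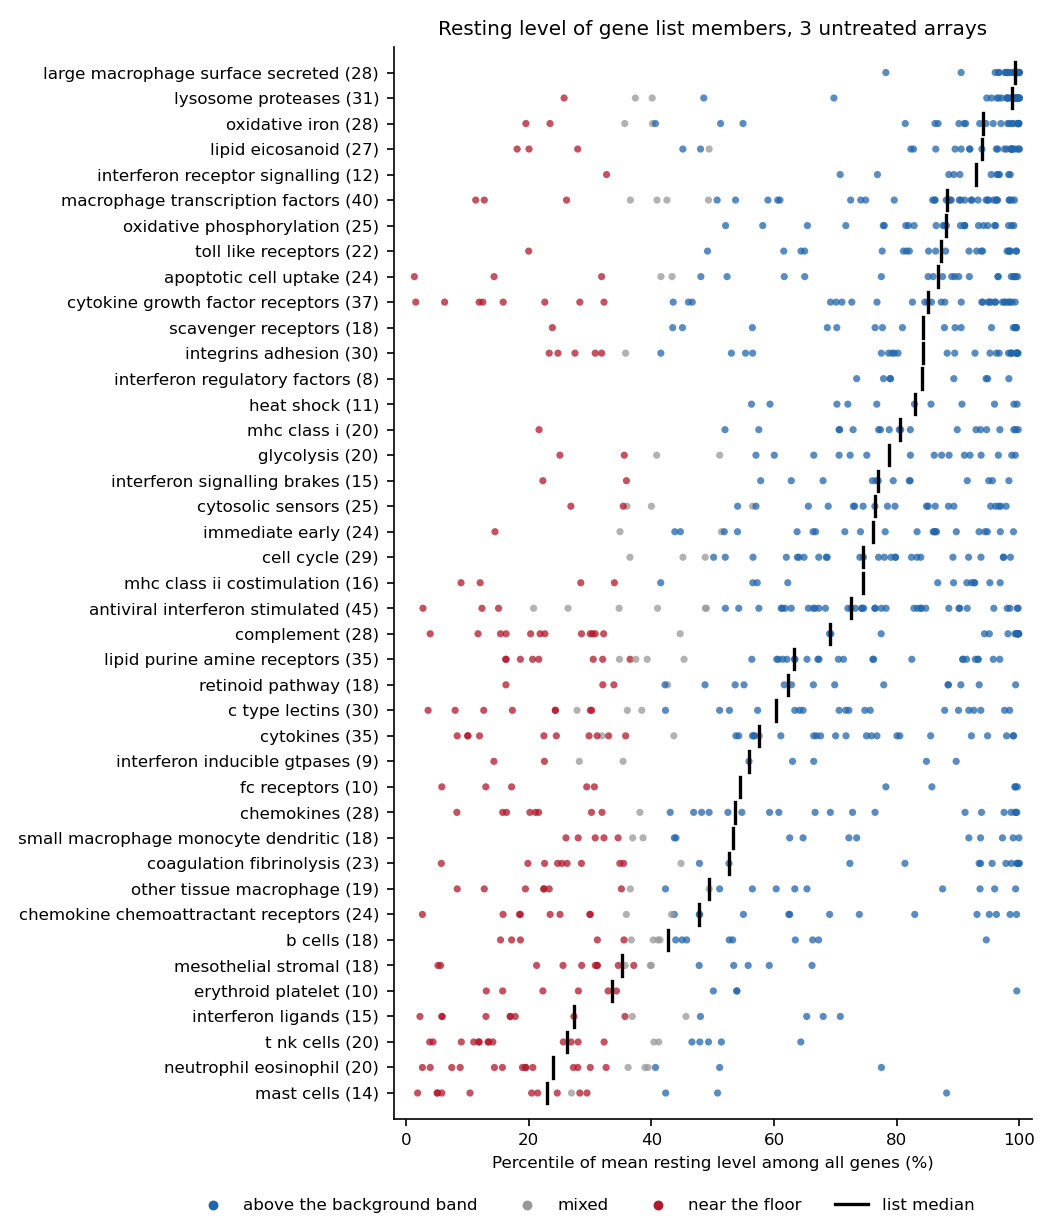
Percentile of mean resting level (horizontal axis, % of 19752 genes) for every measured member of 41 gene lists, ordered by list median, with the number of members in brackets. Blue points lay above the background band in all 3 untreated arrays, red points in none, and grey points in some. Genes of large macrophages and lysosomes sat highest, with medians at 99.2 and 98.9, and mast cell genes lowest, at 23.1.

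The brightest genes of the resting cell coded for secreted matrix and lipid proteins, lysosomal proteins, complement and iron storage. The small nuclear RNA Rn7sk was the brightest of all. Fn1 (fibronectin, a matrix protein) followed at rank 3 with 17400.3, 16743 and 16557. Lyz2, the lysozyme that cuts bacterial walls, was at rank 5 with 16923, 15956 and 15641. Apoe, a carrier of cholesterol, was at rank 6 with 14465, 16111 and 15648. Among the others of the first 25 named by the rule were the lipoxygenase Alox15, the lubricant proteoglycan Prg4 and the protease inhibitor Cst3. Thbs1 (thrombospondin), C1qb, the ferritin chains Fth1 and Ftl1, transferrin (Trf), the NADPH oxidase subunit Cybb and properdin (Cfp) were there as well. Baiap2l1 ranked 2, but its 3 probe sets gave means of 16913, 4520 and 79.8, so its rank belongs to 1 probe set. The 200 highest genes also held 14 of 71 ribosomal protein genes, ended at Dbi with 4892.8, and left out Txnip at 4889.8.

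Lysosomal genes were bright almost throughout. Of the list, 28 of 31 lay above the band, 26 were in the top 10% and 15 among the first 200. Psap, which makes activators of lipid-degrading enzymes, gave 10344, 9295 and 9615. The cathepsin Ctsb gave 8364, 9690.5 and 9387, and the asparaginyl protease Lgmn gave 5352, 5541 and 5246. The exceptions were the cathepsin Ctsk, near the floor, and Gpnmb and Cd63, which were mixed. The lipid list followed, with 23 of 27 above the band and 17 in the top 10%.

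Enzymes of the eicosanoids, lipid mediators made from arachidonic acid, were found at both ends of the scale, among lipoxygenases and among makers of prostanoids alike. Alox15 gave 13345, 14327 and 15552, and Alox5ap, the partner of 5-lipoxygenase, gave 6812, 7733 and 7679. Ptgis, which makes prostacyclin, gave 4934, 5038 and 5719. Ptgs2, the inducible cyclooxygenase, was near the floor at 84.1, 89.3 and 88.7, as were Alox12 and Hpgds. Plin2, which coats lipid droplets, gave 3014, 4612 and 6561, lowest in replicate 1 and highest in replicate 3. Lpl, which releases fatty acids from lipoproteins, gave 4802, 3746 and 4685.

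Oxidant and iron genes were above the band in 24 of 28. Cybb gave 10793, 10269.8 and 10831 and the redox protein Txn1 10513, 12251 and 12888. Gpx1, which removes peroxides, gave 7453, 8461 and 8666. Arg1, an arginase used as a marker of alternative activation, gave 999.7, 911 and 1683, whereas Nos2, which makes nitric oxide, was mixed at 111, 111 and 109.6. The iron exporter Slc40a1 was near the floor at 75.5, 80.2 and 70.7, in the same arrays in which ferritin was among the first 25 genes. Acod1, which makes itaconate, gave 196, 159 and 192, low but above the band.

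Receptors for debris and dying cells were high. Of the scavenger receptors 17 of 18 lay above the band. Msr1 (scavenger receptor A) gave 7091, 7342 and 7417, and Lrp1, an endocytic receptor, gave 7705, 6212 and 6934. Cd36, a receptor for oxidised lipids, gave 4349.7, 5176 and 5487, lowest in replicate 1. Stab1 was at 1348, 1346 and 737, with replicate 3 well under the others. Cd163, a haemoglobin receptor of many tissue macrophages, was far down at 205, 227 and 227. Of genes for uptake of apoptotic cells 19 of 24 lay above. The adaptor Tyrobp gave 7487, 8857 and 8431, the kinase receptor Mertk 1957, 2261 and 2549.6, and the ligand Pros1, which bridges dying cells to Mertk, 4016, 4228 and 4524. The related kinase Axl gave 590.0, 1090.2 and 1459, spread over the arrays, and Tyro3 was mixed at 142, 129 and 129. Timd4 was high while its relative Havcr1 was near the floor at 56.7, 56.8 and 44.8.

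Receptors for antibody fell into separate levels. The shared signalling chain Fcer1g gave 7493, 8409.6 and 8046, the low-affinity activating receptor Fcgr3 5307, 7058 and 6376 and the inhibitory receptor Fcgr2b 5494, 6420.1 and 5821. The high-affinity receptor Fcgr1 was lower on its own probe set at 387, 497 and 801, and Fcgr4 gave 427, 927 and 1253, both lowest in replicate 1 and highest in replicate 3. The IgE receptor chain Fcer1a and the B cell receptor Fcer2a were near the floor. C-type lectins were above the band in 19 of 30, close to the share of all genes. Clec4e (Mincle, a receptor for mycobacterial glycolipid) gave 2637, 4214 and 4617, Clec4d 2410.2, 2869 and 3419 and the beta-glucan receptor Clec7a (dectin-1) 1096, 1398 and 1546. Clec4b1 and Clec4b2 were near the floor, Clec4b1 at 23.4, 18.6 and 27.5.

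Complement genes lay above the band in 15 of 28 (53.6%) and near the floor in 12, which is close to the shares of all genes (55.8% and 35.4%), and 9 were among the first 200 genes. The bright ones included the recognition chains C1qb, at 11198, 12721 and 12293, and C1qc, at 9421, 10318 and 10725, with C4b at 10496, 9176 and 9159 and properdin at 10428, 10257 and 10928. The genes near the floor included proteases and late components. The protease of the C1 complex, C1s1, was among them, C2 gave 102, 95.2 and 85.9, and C6 and C7 of the membrane attack complex gave 68.8, 53.0 and 51.0 and 47.8, 42.4 and 46.1. Among receptors, Itgam with Itgb2 (complement receptor 3) gave 8209.8, 6932 and 8397 and 9769, 8912 and 9681, and C3ar1, for the fragment C3a, gave 6863, 7668 and 7689. C5ar1, for C5a, gave 1704, 1647 and 1973. Cr2, of B cells, was near the floor.

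Growth factor and cytokine receptors were above the band in 29 of 37. Csf1r, the receptor for the macrophage growth factor CSF1, gave 6186, 5984 and 6237, and the chains for GM-CSF, Csf2ra and Csf2rb, gave 3728, 4333 and 3415 and 2332, 2956 and 3138. Notch2 gave 4829, 3933 and 4713 and Il6ra 3069, 3068 and 3014. The stem cell receptors Kit and Flt3 were near the floor, as were Il7r, Met, Il1r2 and Il13ra2, the last at 17.2, 16.8 and 16.8. Of chemoattractant receptors 14 of 24 lay above. Cmklr1, the chemerin receptor, gave 3509.9, 4021 and 4103, Ccr1 gave 1775, 2326 and 2327 and the platelet-activating factor receptor Ptafr 1302, 1368 and 1538. The neutrophil receptor Cxcr2 was near the floor at 24.2, 19.0 and 17.4, with Cxcr5 and Ccr9.

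Receptors for lipids, purines and amines included several bright members, and 23 of 35 lay above the band. P2rx4, an ATP-gated channel, gave 1997, 2742 and 2364. The prostaglandin E2 receptor Ptger4 gave 1752, 2094 and 1997, while its relative Ptger3 was near the floor at 70.7, 52.9 and 49.8. The sphingosine-1-phosphate receptors S1pr1 and S1pr5 gave 1119, 1613 and 1607 and 1323, 1241 and 1747, and S1pr3 was near the floor at 63.5, 67.6 and 58.8. The serotonin receptor Htr2a gave 1218, 1168 and 1010.2, and Htr2b 62.3, 50.7 and 58.3, near the floor. Receptors of the same ligand were thus found at both ends of the scale.

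Transcription factors were spread over the range, with 33 of 40 above the band and 17 in the top 10%. Id2, an inhibitor of basic helix-loop-helix factors, gave 4481, 5744 and 6825, and Spi1 (PU.1, the master factor of myeloid cells) gave 3586, 5125 and 4802. Zeb2, which preserves tissue macrophage identity, gave 3526, 3856 and 3702, and Klf2 gave 2369.8, 2069 and 2120.0. The CCAAT-binding factors Cebpb and Cebpa gave 1479, 1802 and 1948 and 690.3, 1094 and 1215. All but Klf2 of these were lowest in replicate 1. Bhlhe40 gave 998, 1078 and 1465, whereas its close relative Bhlhe41 was near the floor at 42.2, 45.8 and 45.5. Spic, of splenic red pulp macrophages, gave 47.7, 53.6 and 43.4, and Sall1, of microglia, was mixed at 133, 118 and 93.4. Pparg, which directs alveolar macrophages, was above the band but low at 216, 203 and 321. The stem cell factor Myb was near the floor. Mitf ranked at percentile 88.7 on the probe set used, whose mean was 958.5, and a further probe set of that gene gave 14.7.

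Retinoid genes were spread over the scale, with a median percentile of 62.3. Of this list 14 of 18 (77.8%) lay above the band, 3 were in the top 10% and 1 was among the first 200. The receptors Rxra and Rarb gave 898, 1059.5 and 1375 and 759.8, 1043 and 1040.4, both lowest in replicate 1. Of the enzymes that make retinoic acid, Aldh1a1 was near the floor at 116, 104 and 81.0, and Rdh10, which makes its precursor, gave 267, 329 and 378. Cyp26a1, which breaks retinoic acid down, gave 319.8, 304 and 225.

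**Figure D2:**
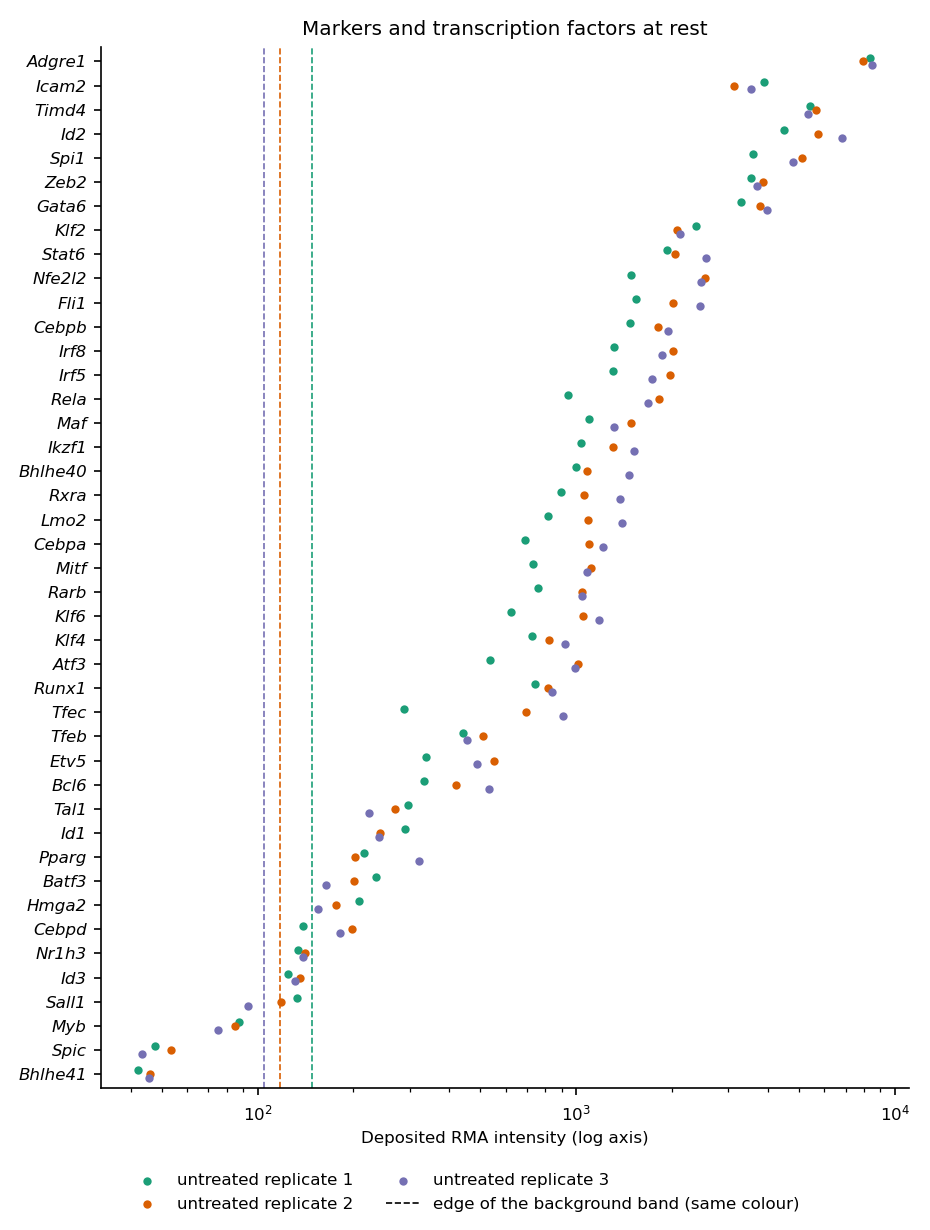
Deposited RMA intensity (log axis) of 3 surface markers and 40 transcription factors in each of the 3 untreated arrays, 1 coloured point per array. The dashed lines mark the edge of the background band in the array of the same colour. Points of Adgre1 lie between 7966 and 8498, and Bhlhe41, Spic and Myb lie left of all 3 lines.

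Genes of microbial sensing were expressed at rest with few exceptions. Of the Toll-like receptor list 21 of 22 lay above the band. Ly86 and Cd180, which form a receptor complex related to Tlr4, gave 6172, 8124 and 7724 and 6493, 7328 and 6951. Ly96 and Cd14, partners of Tlr4 in sensing lipopolysaccharide, gave 2733, 5386 and 4377 and 2333, 3638 and 3880.1. Unc93b1, which carries nucleic-acid-sensing receptors to endosomes, gave 3541, 3832 and 3593. Among the receptors, the endosomal RNA sensors Tlr13, Tlr8 and Tlr7 gave 3273, 3615 and 3967, then 1113, 2106 and 1559.7, then 1173, 1549 and 1495. Tlr2 and Tlr4, for lipopeptides and lipopolysaccharide, gave 692, 855 and 939 and 436, 462 and 711. Tlr3, for double-stranded RNA, gave 258, 344 and 293, and Tlr9, for DNA, gave 222, 160.0 and 138 and was highest in replicate 1. Tlr12 was near the floor at 77.2, 64.1 and 59.5. Except for Tlr9 and Tlr12, every gene of the list had its lowest value in replicate 1.

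Cytosolic sensors lay above the band in 20 of 25. The inflammasome adaptor Pycard gave 2804, 3087 and 3316. Naip2, Naip5 and Naip6, sensors of bacterial secretion systems and flagellin that resemble each other in sequence, gave 1754, 1750.0 and 1997, 2392, 2195 and 2254 and 2744, 2195 and 2397. The RNA sensor Ifih1 (MDA5) gave 412, 658 and 690.1, and the DNA sensor Cgas was mixed at 112, 100.4 and 125. Nlrp1a was near the floor at 72.4, 80.4 and 103.

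Interferon genes themselves were mostly near the floor. Of 15 ligand genes 9 were near the floor and 2 mixed. The 4 above the band were Ifnl2, Ifna5, Ifnz and Ifna14. Ifnl2 gave 508, 405 and 288 and Ifna5 458, 345 and 265. Every one of the 4 was highest in replicate 1 and lowest in replicate 3, the order in which the smell and taste receptors stood, whose medians were 42.4, 35.9 and 33.3. An order over 3 arrays is a description, and the part of background in the signal of these 4 genes was not tested. Ifnb1, the first type I interferon made on infection, gave 61.2, 66.0 and 57.2 and Ifng 135, 113 and 88.4, both near the floor.

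The receptors and signalling proteins for interferon were present at rest. Of this list 11 of 12 lay above the band and 7 in the top 10%. For type I interferon, Ifnar2 gave 3459, 4179.6 and 4059.6 and Ifnar1 952, 1057 and 1253. For IFNg, Ifngr1 gave 1894, 2233 and 2379 and Ifngr2 1841, 2508 and 2746. Of the chains for type III interferon, Il10rb, which is shared with IL-10, gave 2940.4, 3954 and 3794, and Ifnlr1 was near the floor at 119, 93.3 and 93.3. The kinases Jak1, Tyk2 and Jak2 gave 1662, 2417 and 2823, 902, 954 and 973 and 346, 589 and 639. Stat2, part of the type I factor complex with Irf9, gave 307, 403 and 477, and Irf9 gave 642, 1188 and 1334. After injection, 354 of 19752 genes (1.79%) rose with IFNa and 245 (1.24%) with IFNg by limma, and 2 of the 12 genes of this list rose with IFNa and 1 with IFNg. Stat2 rose by log2 3.07 ± 0.15 (adjusted p = 3.68e-06) after IFNa and by 2.50 ± 0.18 (adjusted p = 0.000121) after IFNg, and Jak2 by 1.10 ± 0.22 (adjusted p = 0.0318) after IFNa. The call of Jak2 was lost without IFNa replicate 1, 2 or 3 or untreated replicate 2, with adjusted p up to 0.0962.

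All 8 interferon regulatory factors with a value, Irf9 among them, lay above the band. Irf2, which binds the same elements as Irf1 and can repress them, gave 2978, 3996 and 3929. Irf8 and Irf5, factors of the myeloid lineage, gave 1310.2, 2019 and 1859.5 and 1305, 1967 and 1735. Irf3, the constitutive factor downstream of virus sensors, gave 489, 535 and 560.5. Irf7, which amplifies type I interferon, gave 325, 594 and 885 and Irf1 358, 659.9 and 716. A further probe set of Irf1 gave a mean of 169, against 552.9 for the one used. Irf4 gave 280.0, 543 and 554. All 8 were lowest in replicate 1, with a median log2 difference of -0.75 from the mean of the others. Of the 8 genes, 2 (Irf1 and Irf7) rose with IFNa and 3 (with Irf8) with IFNg, against 1.79% and 1.24% of all genes. Irf7 rose by 3.18 ± 0.28 (adjusted p = 0.000165) after IFNa, and Irf8 by 1.98 ± 0.18 (adjusted p = 0.000532) after IFNg. The IFNg call of Irf7 was lost without either IFNg array or untreated replicate 2 (adjusted p up to 0.326), by median centring (0.0616) and with only the 2 groups compared (0.203).

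Genes that limit interferon signalling lay above the band in 13 of 15. The phosphatases Ptpn6 and Ptpn1 gave 1654, 1872 and 2237 and 805, 1258 and 1729. Socs1, a feedback inhibitor of JAK kinases, gave 213, 244 and 236, and Usp18, which removes ISG15 and blocks Ifnar2, ranged from 166 in replicate 1 to 439 in replicate 3. Socs2 was near the floor at 71.5, 78.1 and 68.8, although a further probe set gave a mean of 138.1. After IFNa 4 of these 15 genes rose and 1 fell, and after IFNg 4 rose. Over all genes 1.79% rose and 0.856% fell after IFNa, and 1.24% rose and 0.111% fell after IFNg. The fall after IFNa was not called without untreated replicate 2. The rises after IFNg numbered 2 without IFNg replicate 1, 7 with the replicate number as a block and 7 without the 2 arrays of narrow range. Usp18 rose by 4.67 ± 0.27 (adjusted p = 1.1e-05) after IFNa.

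Antiviral genes stood at every height of the scale at rest. Of 45 with a value, 36 lay above the band, 6 were mixed and 3 were near the floor, and 8 were in the top 10%. Ifitm3, which blocks fusion of viruses in endosomes, was the brightest at 9308, 10549 and 10343 (rank 39), followed by Ifitm2 at 7325, 8576 and 7901. Samhd1, which removes nucleotides needed for reverse transcription, gave 3074, 3732 and 4860.3, and Ifitm6 2190.2, 3522 and 4323. Trim30a gave 1537, 1840.4 and 2706 and Oas2, a maker of 2-5A that activates RNase L, gave 1209, 1053 and 1371. At the other end, Ifit2 gave 46.5, 45.1 and 49.9, Ifit3b 21.7, 18.7 and 20.6 and Ifi44l 71.0, 50.4 and 44.6. The mixed genes included Ifit1 at 85.1, 139 and 189, Ifit3 at 63.1, 81.9 and 110.2, Mx2 at 60.5, 50.2 and 107 and Rsad2 (viperin) at 107, 217 and 206. Within the list, replicate 1 was lowest for 34 of 45 genes and replicate 3 highest for 36.

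Resting height and the response were set side by side, with the untreated arrays entering both. After IFNa 39 of the 45 antiviral genes rose, and after IFNg 22, against 1.79% and 1.24% of all genes. The list holds genes known to be stimulated by interferon and was chosen with earlier results of these data known. Its high counts are thus a description. Counts after IFNg rested on few arrays, with 6 called without IFNg replicate 1, 8 without IFNg replicate 2 and 15 without untreated replicate 2, while those after IFNa stayed between 38 and 40 whichever array was left out. Ifit1 went from a resting mean of 131 to 9082 after IFNa, a rise of log2 6.12 ± 0.25 (adjusted p = 1.58e-06), with 2 of its 3 resting values above the band. Where a gene was near the floor at rest its rise is given as a lower bound, the treated geometric mean over 122, which is the geometric mean of the 3 edges of the band. The adjusted p beside such a bound is that of the limma difference from the measured resting values, and the bound itself was not tested. Ifit2, with a mean of 2284 after IFNa, was at least 18.6-fold higher (adjusted p = 2.45e-07). Oas2, already in the top 10%, went from 1204 to 4564, by 1.92 ± 0.12 (adjusted p = 2.25e-05). Rsad2, also above the band in 2 of 3 resting arrays, went from 169 to 8665, by 5.68 ± 0.23 (adjusted p = 1.58e-06). The 6 genes that did not pass after IFNa were Ifitm3, Ifitm2, Ifitm6, Ifitm1, Oas1c and Ifi44l. Ifitm3 had a difference of 0.12 ± 0.10 (adjusted p = 0.826), Ifitm2 of -0.06 ± 0.12 (adjusted p = 0.947) and Ifitm6 of 0.78 ± 0.21 (adjusted p = 0.108). Ifitm3 and Ifitm2 were thus bright at rest with no detected change, and Ifi44l was near the floor with no detected change (adjusted p = 0.991).

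The interferon-inducible GTPases, which attack vacuoles that hold microbes, lay near the middle of the scale at rest, with a median percentile of 55.9. Of 18 genes listed only 9 had a value. Of these 9, 5 (55.6%) lay above the band, close to the 55.8% of all genes, and none in the top 10%. Gbp3 gave 893, 1043 and 1206 and Gbp7 588, 784 and 905. Irgm1, a regulator of the family, gave 189, 393 and 452, lowest in replicate 1, and Iigp1 was mixed at 75.9, 72.7 and 123. Gbp4 and Gbp8 were near the floor, with 91.7, 77.1 and 55.6 and 77.9, 49.1 and 37.7. All 9 rose after IFNa and all 9 after IFNg, against 1.79% and 1.24% of all genes, in a list that was likewise chosen with earlier results known. Gbp8 was the least certain, since its call after IFNa did not survive leaving out IFNa replicate 1, 2 or 3 or untreated replicate 2 or 3 (the highest adjusted p was 0.202). It was lost after IFNg without either IFNg array or untreated replicate 2 (up to 0.183), which left 8. It was also lost after IFNa by median centring (0.054), and after both with only the 2 groups compared. Iigp1, above the band in 1 of 3 resting arrays, rose by 5.22 ± 0.23 (adjusted p = 2.2e-06) after IFNa and by 5.76 ± 0.28 (adjusted p = 6.85e-06) after IFNg.

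**Figure D3:**
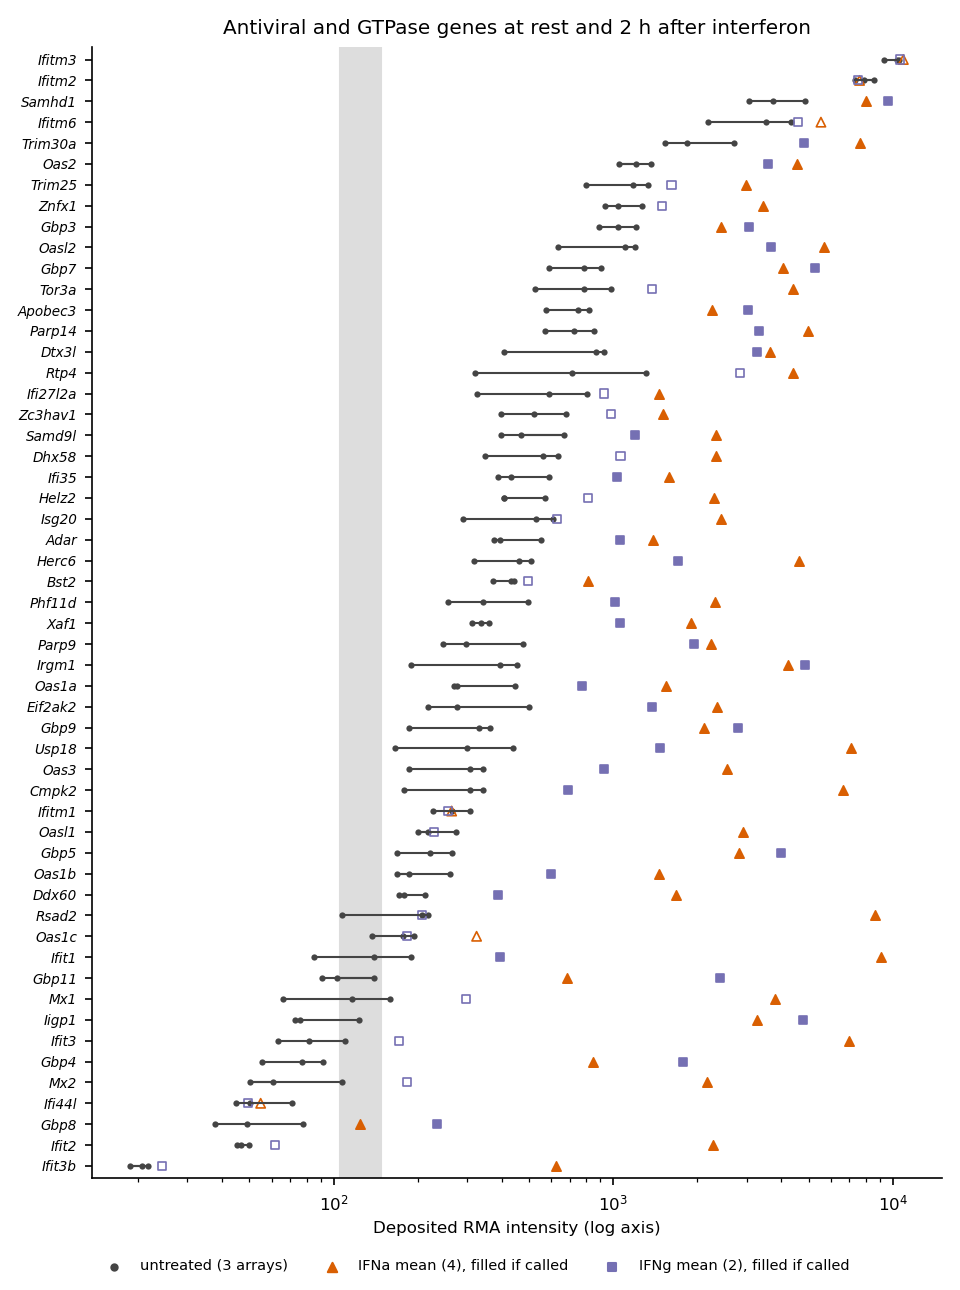
Deposited RMA intensity (log axis) of 45 antiviral genes and 9 interferon-inducible GTPases, ordered by resting level. Dark points joined by a line are the 3 untreated arrays, triangles the geometric mean of 4 IFNa arrays and squares that of 2 IFNg arrays, filled where the gene rose (limma, adjusted p under 0.05), and the grey strip spans the edges of the background band (105.1 to 148.3). Ifit1 and Rsad2, mixed at rest, have IFNa means of 9082 and 8665, while the triangles of Ifitm3 and Ifitm2 lie by their untreated points.

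Promoters of bright genes and of mixed genes are shown because the same element was found in each of them. Of antiviral genes near the floor, Ifit3b had it in the wider window counted below, and Ifit2 and Ifi44l did not. Sequences are from RefSeq (GRCm38.p6), from 170 bases before to 30 after an annotated start, 5′ to 3′ on the gene's strand. Capitals mark matches to the core of the interferon-stimulated response element (ISRE), which is GAAA, any 2 bases and GAAA again, or to its reverse complement. The first pair belongs to genes with bright resting signal and no detected rise, and the second pair to mixed genes with a large rise after IFNa.
Ifitm3, chr7:141010715-141010914, minus strand: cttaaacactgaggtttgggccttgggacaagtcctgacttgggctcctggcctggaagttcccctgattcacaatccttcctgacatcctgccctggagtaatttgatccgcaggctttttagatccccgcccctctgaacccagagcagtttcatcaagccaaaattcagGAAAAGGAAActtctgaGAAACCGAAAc
Ifitm2, chr7:140955932-140956131, minus strand: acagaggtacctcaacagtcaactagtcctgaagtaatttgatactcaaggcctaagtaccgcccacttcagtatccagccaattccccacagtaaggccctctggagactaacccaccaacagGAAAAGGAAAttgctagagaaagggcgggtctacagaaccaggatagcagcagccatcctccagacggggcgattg
Ifit3, chr19:34583359-34583558, plus strand: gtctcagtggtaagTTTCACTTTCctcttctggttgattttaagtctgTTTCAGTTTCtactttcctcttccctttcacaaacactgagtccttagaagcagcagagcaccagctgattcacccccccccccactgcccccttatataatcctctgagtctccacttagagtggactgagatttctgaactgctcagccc
Ifit1, chr19:34640719-34640918, plus strand: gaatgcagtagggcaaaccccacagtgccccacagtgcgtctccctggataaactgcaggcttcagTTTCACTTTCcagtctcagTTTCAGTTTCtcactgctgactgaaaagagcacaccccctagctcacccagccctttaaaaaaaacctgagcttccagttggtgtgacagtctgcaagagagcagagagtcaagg
In Ifitm3 the matches began 3 and 20 bases after the start, counting the start as 1, and in Ifitm2 at 46 bases before it. In Ifit3 they began at 156 and 122 bases before the start and in Ifit1 at 104 and 85. In windows from 250 bases before to 50 after each annotated start, both strands searched, this pattern was found for 599 of 15435 genes with a window (3.88%). It was found for 14 of 34 antiviral genes (41.2%) and for 4 of 4 GTPases. Across both lists it was found for 13 of 31 genes above the band, 4 of 4 mixed and 1 of 3 near the floor. Among the 200 brightest genes 16 of 158 (10.1%) had it, and near the floor 228 of 5274 (4.32%). A match is a description of letters and not a bound site.

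Other motifs were counted in the same windows. GAGGAAGT, a core bound by PU.1, was found for 3.24% of all genes, 5.20% of the top 10% and 2.69% of genes near the floor. AGATAAG, bound by factors of the Gata6 family, was found for 3.05%, 2.57% and 4.29%. The former was thus found more often at the top than at the floor and the latter less often, as counts with no test.

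Antigen presentation was unequal between its classes. Of MHC class I genes 19 of 20 lay above the band. B2m, the light chain, gave 10039, 10272 and 10183, and Tapbp, which loads peptides, 2464, 2319 and 2302. The peptide transporter Tap1 gave 523, 625 and 651 and the immunoproteasome subunit Psmb9 509, 493 and 665. In class II and costimulation 12 of 16 lay above. Cd74, the invariant chain, gave 3186, 1866 and 2251, H2-Aa 1669.8, 1042 and 1412 and H2-Ab1 1495, 908 and 1272. These 3 genes and H2-Eb1, at 1165, 642 and 790.3, were highest in replicate 1 and lowest in replicate 2, unlike most bright genes. Other cells that carry class II gave no single order. The summed level of the small macrophage, monocyte and dendritic list was lowest in replicate 1, at 23350 against 26706 and 28309, and replicate 1 was lowest for 8 of its 18 genes. The sum of the B cell list, given above, was also lowest in replicate 1, but the median B cell gene was higher there by log2 0.26 and only 2 of 18 were lowest there. The part of such cells in the class II levels was not tested. Ciita, the switch of class II genes, was just above the band. Cd40, Cd80 and Cd274 (PD-L1) gave 1198, 1378 and 1442, 933, 1519 and 1467 and 183, 184 and 341.

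Secreted signals were dominated by a few genes. Of the chemokines 19 of 28 lay above the band. Pf4, Ccl6 and Cxcl13, the B cell attractant, were the brightest, with Ccl6 at 6336, 6705 and 7666 and Cxcl13 at 5951, 6787 and 5227. Ccl24, which attracts eosinophils, gave 1772, 3387 and 3495, and Ccl3 gave 809, 2924 and 1469, lowest in replicate 1 and highest in replicate 2. The ligands of Cxcr3 were low, with Cxcl10 at 221, 206 and 149, Cxcl9 at 119, 146 and 98.9 and Cxcl11 at 78.9, 61.8 and 61.8. Ccl8 was near the floor at 32.7, 40.1 and 34.9.

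Among cytokines 22 of 35 lay above the band. Tgfb2 and Tgfb1, which restrain inflammation, gave 4975, 5297 and 5134 and 2721, 3525 and 3243, and Retnla gave 4416, 5210.3 and 5204. Igf1 gave 1047, 1623 and 1223. The inflammatory cytokines were low, with Il1b near the floor at 97.7, 69.5 and 69.5, Il6 mixed at 65.4, 104 and 142 and Tnf above the band at 199, 228 and 240.2. Il10 was near the floor at 31.7, 48.6 and 43.5 and Csf2 at 49.7, 45.5 and 43.1. Chil3, which like Retnla is used as a marker of alternative activation, gave 31.6, 27.4 and 53.5, so the 2 markers lay at opposite ends.

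Clotting genes lay above the band in 13 of 23, close to the share of all genes. F5 gave 7395, 7147 and 7814, F10 2827, 2707 and 3591 and the inhibitor of plasminogen activators Serpinb2 8043, 7917 and 9839. F2 (prothrombin), F9 and F11, made by the liver, were near the floor, F9 at 29.6, 29.0 and 28.6. F3 (tissue factor), the trigger of clotting, was mixed at 118, 151 and 181. Adhesion genes lay above the band in 24 of 30, led by Itgb2, Selplg, Emilin2 and Itgam. Itga6 gave 6842, 6197 and 7259.9 and Itga4 4444, 3927 and 4177, while Itgax, Itga1, Pecam1 and Vcam1 were near the floor.

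Genes of energy supply were all or mostly above the band, in 25 of 25 for oxidative phosphorylation and 16 of 20 for glycolysis. Atp5b, of the ATP synthase, gave 3773, 5380.4 and 7008, and Ldha, which makes lactate, 4721, 6947 and 7165. The glucose transporter Slc2a1 gave 592, 681 and 677, and Slc2a3 was near the floor at 93.7, 71.5 and 75.3. Cell cycle genes lay above the band in 26 of 29. Cdk4 gave 2979, 4318 and 4705, Pcna 1887, 2884 and 3619.7 and Ccnb2 979, 1524 and 2257, each lowest in replicate 1 and highest in replicate 3. None of these 29 genes was near the floor.

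The 3 untreated arrays differed in some gene groups more than in others. Relative to the mean of replicates 2 and 3, replicate 1 was lower for all 25 oxidative phosphorylation genes, with a median log2 of -0.64. The median was -0.60 for the cell cycle, -0.60 for heat shock genes and -0.50 for antiviral genes, against -0.25 for all genes above the band. It was -0.02 for large macrophage genes. The 6 lists of non-macrophage cells were higher in replicate 1, by 0.17 for neutrophils and eosinophils to 0.35 for erythroid cells and platelets. Many of their members were near the floor, from 5 of 18 for B cells to 10 of 14 for mast cells. The smell and taste receptors were likewise highest in replicate 1, with medians of 42.4, 35.9 and 33.3 in replicates 1, 2 and 3. The part of the background in the differences of these 6 lists was not tested. Replicate 3 was higher than replicate 2 for the cell cycle by 0.63 and for antiviral genes by 0.25, against 0.08 for all genes above the band. These differences are between single arrays, they move with the interquartile range of the arrays, and its part in them was not tested.

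Immediate early genes, which answer within minutes to handling or stimulation, were also lowest as a sum in replicate 1. Their summed intensity was 15033 in replicate 1, 24293 in replicate 2 and 24757 in replicate 3, and 14708 to 16788 in the IFNa arrays. Fos gave 204, 703 and 637 and Jun 717, 2176 and 1951. Dusp1, a phosphatase induced by stress, gave 3302, 5736 and 6887. All 3 were lowest in replicate 1. The IFNg arrays summed to 17974 and 22955. Heat shock genes summed to 17151, 18832 and 23446 in the untreated arrays and 23578 to 28457 in the IFNa arrays, and to 28153 and 21559 in the IFNg arrays, the last within the untreated range. None of the 11 heat shock genes was called by limma after either interferon, and at an unadjusted p under 0.05, 6 were higher after IFNa and 2 after IFNg.

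The 12 genes above the band with the largest spread at rest were of mixed kinds. They included the small nucleolar RNAs Snord118, Snora69, Snord49b and Snora44 and the spliceosomal RNA Rnu12. Snord118 gave 11271, 2692 and 685 (SD 2.02 on the log2 scale, n = 3), highest in replicate 1. Psmd10, a proteasome chaperone, gave 217, 697 and 959, Hdac2 199.5, 442 and 787 and Erh 182, 331 and 777, each lowest in replicate 1. Rtp4, an interferon-stimulated chaperone, was the only antiviral gene among them, with 321, 711 and 1310.4.

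**Figure D4:**
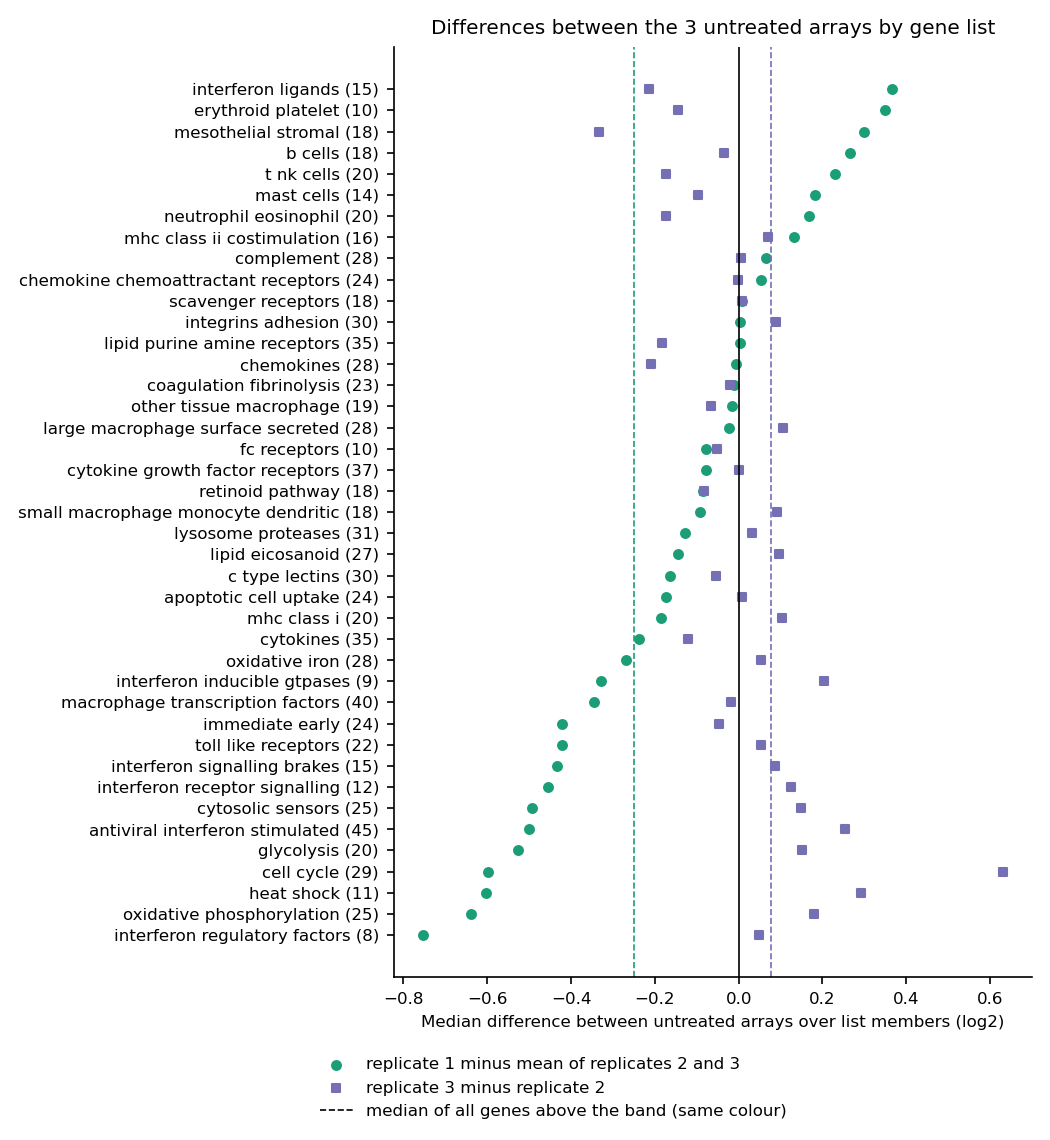
Median log2 difference between untreated arrays over the members of each list (horizontal axis), for replicate 1 minus the mean of replicates 2 and 3 (circles) and for replicate 3 minus replicate 2 (squares), with the number of members in brackets. Dashed lines show the same medians over all genes above the band, -0.25 and 0.08. Interferon regulatory factors lie farthest left, at -0.75, and the cell cycle square stands at 0.63.

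Calls after interferon are given by resting height as a description only. The untreated values that set the bands are also the baseline of both comparisons, and a gene near the floor has little room to fall, so the balance of rises and falls in a band is partly fixed by the way it was cut and nothing is read from it. Of the 200 brightest genes none was called by limma in either direction, against 2.65% of all genes after IFNa and 1.35% after IFNg. At an unadjusted p under 0.05, 9 were higher and 19 lower after IFNa, and 3 and 8 after IFNg. Without the 2 arrays of narrow range 3 of the 200 passed after IFNa (Dusp1, Dab2 and Cd37) and 2 after IFNg (Dusp1 and F630028O10Rik). In the top 10%, 48 genes (2.43%) rose and 42 (2.13%) fell after IFNa, against 1.79% and 0.856% of all genes. After IFNg 29 (1.47%) rose and 14 (0.709%) fell, against 1.24% and 0.111%. Of genes near the floor 34 (0.486%) rose after IFNa and 23 (0.329%) after IFNg, and none fell. At an unadjusted p under 0.05, 39 and 107 of the floor genes were lower. Without the 2 narrow arrays the falls in the top 10% were 164 after IFNa and 48 after IFNg, so the count of falls rests on which arrays are used. Leaving out 1 array at a time, falls in the top 10% after IFNa ranged from 14 without untreated replicate 2 to 69 without untreated replicate 1, and every array but IFNa replicate 4 moved this count by over 1.5 times. After IFNg they ranged from 0 without IFNg replicate 1 to 11 without untreated replicate 1, rises in the top 10% from 5 without IFNg replicate 1 to 44 without untreated replicate 3, and rises near the floor from 11 to 25. After IFNa, rises in the top 10% ranged from 31 without IFNa replicate 1 to 73 without untreated replicate 3, and rises near the floor from 22 without untreated replicate 2 to 42 without IFNa replicate 4. By quantile normalization the split over all genes was 476 higher and 522 lower after IFNa and 263 and 77 after IFNg, against 354 and 169, and 245 and 22, as deposited. Without the 2 narrow arrays it was 468 and 638 after IFNa, so whether more genes rose or fell after IFNa depends on the scaling and on these arrays.

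The gene groups that made up the resting profile held unequal numbers of calls after interferon, as counts with no test of the difference. Over all genes 2.65% were called after IFNa (1.79% higher) and 1.35% after IFNg (1.24% higher). No gene of the lysosomal, scavenger receptor or oxidative phosphorylation lists was called by limma after either interferon. At these shares lists of 31, 18 and 25 genes would hold few calls or none, so nothing is read from their absence. At an unadjusted p under 0.05, 1 lysosomal gene was higher and 1 lower after IFNa and 0 after IFNg, 1 scavenger receptor was lower after IFNa and 2 after IFNg, and 2 oxidative phosphorylation genes were higher after IFNg and 0 after IFNa. Under the alternatives run, at most 1 gene of the lysosomal and scavenger lists and 0 of the oxidative phosphorylation list passed. Of 25 cytosolic sensors 12 rose after IFNa and 8 after IFNg. After IFNg 4 were called without IFNg replicate 1, 4 without replicate 2 and 4 with only the 2 groups compared. Of 22 Toll-like receptor genes 2 rose after IFNa, Tlr3 by 2.07 ± 0.15 (adjusted p = 3.7e-05) and the adaptor Myd88 by 1.43 ± 0.31 (adjusted p = 0.0459), and Tlr3 alone after IFNg, by 1.03 ± 0.17 (adjusted p = 0.0186). The call of Myd88 was lost without any 1 IFNa array or untreated replicate 2 (adjusted p up to 0.111), and that of Tlr3 after IFNg without either IFNg array or untreated replicate 1 (up to 0.297). Of 10 Fc receptor genes the same 2, Fcgr1 and Fcgr4, rose after both. Fcgr1 went from a resting mean of 536 to 3602 after IFNa and 2673 after IFNg, the latter with an adjusted p of 0.051 without IFNg replicate 1. The call of Fcgr4 after IFNg was lost without either IFNg array or untreated replicate 2 (up to 0.217) and with only the 2 groups compared (0.133), so neither gene passed without IFNg replicate 1. Of 28 chemokines 4 rose after IFNa and 5 after IFNg, among them Cxcl10, by 5.47 ± 0.21 (adjusted p = 1.35e-06) and 4.79 ± 0.25 (adjusted p = 1.58e-05). After IFNg 2 chemokines were called without IFNg replicate 2 and 3 with only the 2 groups compared.

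Of the 40 transcription factors 3 rose and 3 fell after IFNa. The shares over all genes, for each list here, were 1.79% higher and 0.856% lower after IFNa and 1.24% and 0.111% after IFNg. Tfec, of the family of Mitf, gave 289, 697 and 909.8 at rest and rose by 1.78 ± 0.32 (adjusted p = 0.0165). The stress factor Atf3 gave 537, 1012 and 989.7 and rose by 1.61 ± 0.21 (adjusted p = 0.00225), and Maf gave 1096, 1488 and 1313 and rose by 0.79 ± 0.17 (adjusted p = 0.0446). Gata6, Cebpa and Tfeb, a driver of lysosomal genes, fell, Cebpa by 0.93 and Tfeb by 0.66 on the log2 scale. None of the 3 falls passed without untreated replicate 2. The rise of Tfec was lost without IFNa replicate 1 or 3, with adjusted p up to 0.056, and that of Maf without any array but IFNa replicate 4, with adjusted p up to 0.113. After IFNg 4 rose, Irf8, Tfec, Atf3 and Runx1, and Gata6 fell, and 1 of the rises passed without IFNg replicate 1. Of 35 receptors for lipids, purines and amines 6 fell and 2 rose after IFNa. Those that fell included Ptger4, S1pr1, Htr2a and the nucleotide receptor P2ry2, which gave 1138, 1302 and 1695 at rest and changed by -1.35 ± 0.20 (adjusted p = 0.00459). The nucleotide receptors P2ry13 and P2ry14 rose, by 1.35 ± 0.13 (adjusted p = 0.000256) and 1.25 ± 0.18 (adjusted p = 0.00355). Without untreated replicate 2 the falls numbered 2, as they did without untreated replicate 3. After IFNg 3 fell and 2 rose, and without IFNg replicate 1 no fall passed. Hcar2, the receptor for niacin and ketone bodies, rose by 2.97 ± 0.34 (adjusted p = 0.00233) after IFNg from 206, 248 and 456 at rest. Of 37 cytokine and growth factor receptors 2 rose and 1 fell after IFNa and 6 rose after IFNg, with 0 called without IFNg replicate 1 and 2 without IFNg replicate 2.

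Genes near the floor at rest that rose included Ifit2, Ifit3b and Ifi213. Ifi213, of the PYHIN family, whose members bind DNA, gave 63.1, 71.3 and 81.6 at rest and was at least 21.9-fold higher (adjusted p = 2.45e-07) after IFNa. Cd69, a membrane protein that retains lymphocytes in tissue, gave 37.3, 33.4 and 43.5 and was at least 3.69-fold higher (adjusted p = 3.51e-05) after IFNa and at least 1.67-fold (adjusted p = 0.00305) after IFNg. Casp12 gave 29.0, 30.6 and 27.9 and was at least 1.45-fold higher (adjusted p = 6.85e-06) after IFNg. Ccl12, a ligand of Ccr2, gave 79.7, 72.9 and 61.3 and was at least 2.49-fold higher (adjusted p = 0.00909) after IFNg. All 4 lay within the background band at rest, and their geometric means after IFNg were 549 for Ifi213, 205 for Cd69, 178 for Casp12 and 305 for Ccl12. Here too each adjusted p belongs to the limma difference from the measured resting values, and the bounds were not tested. Leaving out 1 IFNg array ended the call of Ccl12, at an adjusted p of 0.0858 without replicate 1 and 0.131 without replicate 2, and that of Cd69 after IFNg, at 0.0526 without replicate 2.

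Bright genes that rose included Rnf213, a large ubiquitin ligase, at 1293, 1459 and 1880.3, by 2.03 ± 0.17 (adjusted p = 9.21e-05) after IFNa. Wars, which charges tryptophan to its tRNA, gave 684, 1219 and 1491 and rose by 2.15 ± 0.28 (adjusted p = 0.00452) after IFNg, which was lost without IFNg replicate 1 (adjusted p = 0.0904). Bright genes that fell were led by Engase, Htr2a and S1pr1 after IFNa and by S1pr1, Htr2a and Engase after IFNg. S1pr1, through which cells leave tissues toward sphingosine-1-phosphate, went from 1426 to 530.1 after IFNa, by -1.43 ± 0.27 (adjusted p = 0.02), and to 390.0 after IFNg, by -1.87 ± 0.32 (adjusted p = 0.0194). Htr2a changed by -1.53 ± 0.17 (adjusted p = 0.000861) and -1.59 ± 0.21 (adjusted p = 0.00456). Of the 4 markers only Gata6 was called, by -1.05 ± 0.17 (adjusted p = 0.00997) after IFNa and -1.16 ± 0.21 (adjusted p = 0.0242) after IFNg, with treated means of 1769 and 1638. The 3 others had differences of 0.04 ± 0.10, -0.24 ± 0.14 and 0.25 ± 0.11 after IFNa, for Adgre1, Icam2 and Timd4. Engase, an enzyme that removes sugar chains from proteins, gave 2942, 3169 and 3426 at rest and changed by -1.61 ± 0.19 (adjusted p = 0.00136) and -1.38 ± 0.23 (adjusted p = 0.0186). Several of these calls rest on single arrays. Gata6 missed the threshold without untreated replicate 2 after IFNa (adjusted p = 0.0641), and after IFNg without that array, untreated replicate 3 or either IFNg array, the highest adjusted p being 0.337 without IFNg replicate 2. S1pr1 missed it in each comparison when any 1 of 4 arrays was left out, with adjusted p up to 0.117 without untreated replicate 2 after IFNa and 0.243 without IFNg replicate 1. After IFNg, Htr2a missed it without IFNg replicate 1 (adjusted p = 0.0988), and Engase missed it when any 1 of 4 arrays was left out, with adjusted p up to 0.28. The direction was kept in each of these.

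**Figure D5:**
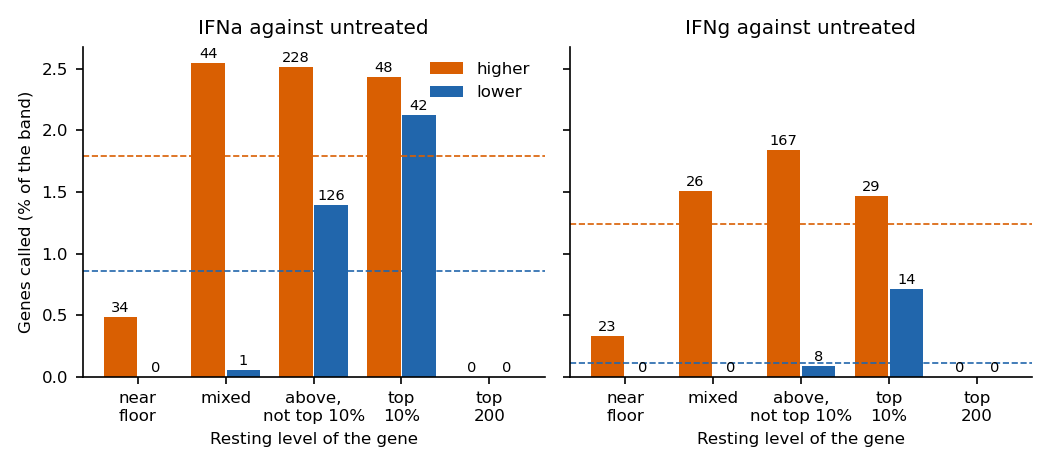
Share of genes called by limma (vertical axis, % of the genes in each resting band) that rose (orange) or fell (blue) after IFNa (left) and IFNg (right), with the number of genes over each bar and dashed lines for all genes (1.79% and 0.856%, and 1.24% and 0.111%). The bar for the top 200 is empty in both panels, and falls reach 2.13% in the top 10% after IFNa.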

How the data were processed

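RNA of 9 sorted macrophage samples was hybridised to Affymetrix arrays. The authors deposited linear intensity values made with Affymetrix Power Tools and RMA, per the submitters' processing notes, whose versions, and which arrays were normalized together, are not given in the sources used here. Here log2 of these values was used without further scaling. Of 24922 probe sets 21425 carried 1 gene symbol, 1399 several and 2098 none in the platform annotation. For the 921 genes with several probe sets that of highest mean over 9 arrays was taken. Groups came from the sample labels. IFNa and IFNg were each compared with untreated by limma 3.58.1 in R 4.3.3, with 3 group means over all 9 arrays (6 residual degrees of freedom), 2-sided, with Benjamini-Hochberg adjustment over 19752 genes and a threshold of 0.05. Both comparisons share the untreated arrays, which also set the ranks. The fit was tested on simulated data. Arrays give no read depth, so their number limits the precision. Members and gene lists were chosen with earlier results of these data known. Named were the 25 highest genes outside housekeeping classes, the 4 markers, up to 6 highest and 4 lowest members of each list, the 12 most variable genes, the 10 largest changes by resting band and, per list and comparison, up to 4 genes of lowest p. Interferon signalling genes, interferon regulatory factors, transcription factors and Toll-like receptors were open to naming in full. The markers of other cells came from fixed lists. Ifnb1, Il1b, Il6, Tnf, Ifitm1 and Oas1c, and the genes named among the 200 brightest, were chosen after their values were seen. Alternatives were median centring, quantile normalization, other background edges, other probe set rules, other designs and leaving out arrays. Replicate numbers were not used as pairs in the main fit, and whether they pair the arrays was not tested.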

Additional observations from a re-analysis of the deposited data

Results flagged for a closer look

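In the IFNa group Ifi213, a DNA-binding PYHIN gene near the floor at rest, was higher in replicate 1 than in the other arrays, at an intensity of 3506 against 2403 to 2526. The gap was 0.868 of the range of the 4 arrays. Chance gives such a gap in about 1 of 20 groups, and many genes were examined.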

How the results depend on the processing

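The resting ranks moved little, and the band counts and the comparisons moved more. Of 590 named genes, 0 moved by over 10 percentile points under quantile normalization or without untreated replicate 1 or 2, 1 without replicate 3, and 7 when probe sets were averaged. Genes above the band numbered 6976 at the 99th percentile of the receptors and 4726 with keratins and defensins, which put 11821 genes near the floor and left 376 list members above. Genes higher after IFNa (354) numbered 261 to 444 with single arrays left out. Genes lower after IFNa (169) numbered 522 by quantile normalization, 89 by median centring, 100 with a variance trend, 74 with only the 2 groups, 638 without the 2 narrow arrays and 27 to 255 with single arrays left out. Genes higher after IFNg (245) numbered 112 with only the 2 groups and 79 to 363 with single arrays left out. Genes lower after IFNg (22) numbered 77 by quantile normalization, 13 by median centring, 7 with only the 2 groups, 145 without the narrow arrays and 1 to 28 with single arrays left out. The lowest values came without untreated replicate 2 for IFNa and without IFNg replicate 1 for IFNg. Leaving out an IFNg array leaves 1, which is assumed to vary like the other groups. With the replicate number as a block 587 were higher and 240 lower after IFNa, and 589 and 110 after IFNg. Deviations of same-numbered arrays correlated from -0.21 to 0.60. Arrays of different number were not set beside them, so whether the numbers pair the arrays was not tested. Of the 200 brightest genes, 3 were called after IFNa by quantile normalization, 1 with a variance trend, 1 with the block and 3 without the narrow arrays. After IFNg 1 was called by quantile normalization, 1 with the block, 1 with only the 2 groups and 2 without the narrow arrays. No difference of a named gene changed sign where it was called as deposited or under the alternative, and signs of uncalled differences were not counted. The balance of calls after IFNa turned, from 354 higher and 169 lower to 476 and 522 by quantile normalization and to 468 and 638 without the narrow arrays. Among single genes 298 calls were lost and 187 gained over all alternatives. The cause of these shifts was not tested. Signal close to the background limits what can be said of dim genes.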
